A study of Mus musculus with 12 samples.

Results

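The interleukin-1 (IL-1) family was followed here as 9 genes of the 31053 in the count matrices of mouse white adipose tissue. They were the receptor gene Il1r1, its co-receptor gene Il1rap, the decoy receptor gene Il1r2, the interleukin-33 receptor gene Il1rl1, the ligand genes Il1a, Il1b, Il33 and Il18, and Il1rn, which codes for the receptor antagonist. The 9 genes were a given list, made with earlier results of these data known, and all 9 were counted in all 12 libraries. Il1r2 was chosen by its measured level in iWAT progenitors, where it differed between groups, so its values in the fibroblast-like cells of iWAT are a description without a test, and its values in other iWAT classes are used in support of nothing.

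IL-1α and IL-1β signal through IL1R1 paired with IL1RAP, and IL-33 signals through the product of Il1rl1 (ST2) paired with the same co-receptor. IL1R2 binds IL-1 but lacks the intracellular signalling domain, and the antagonist encoded by Il1rn occupies IL1R1 without starting a signal, so both act as brakes on the pathway. In adipose tissue, macrophages and neutrophils are known sources of IL-1β, and IL-33 from stromal cells is known to sustain group 2 innate lymphoid cells (ILC2) and regulatory T cells (Treg), both of which carry ST2.

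Il1r2 (chr1:40074079-40125231), Il1r1 (chr1:40225080-40317257) and Il1rl1 (chr1:40429570-40465415) lie on the + strand of chromosome 1 in the mm10 build, GENCODE vM21 annotation. The stretch that holds them also holds Il1rl2 (chr1:40324610-40367562), Il18r1 (chr1:40465552-40500854) and Il18rap (chr1:40515362-40551705), which makes 6 receptor genes of 1 strand within 477.627 kb. Il1a (chr2:129299610-129309972) and Il1b (chr2:129364570-129371139) are neighbours on the - strand of chromosome 2, and Il1rn (chr2:24336853-24351494) lies elsewhere on the same chromosome. The remaining members were Il18 (chr9:50554827-50581840), Il1rap (chr16:26581704-26730117) and Il33 (chr19:29925114-29960718).

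The cells came from epididymal (eWAT) and inguinal (iWAT) fat of male mice at 12 weeks of age, in 3 groups per depot with 2 libraries each. WT-Veh mice were C57BL/6J given vehicle (methylcellulose), ob/ob-Veh mice carried the leptin mutation Lepob on both alleles in all tissues and received vehicle, and ob/ob-Rosi mice of that genotype received 30 mg/kg rosiglitazone, an agonist of the nuclear receptor PPARγ. Gavage was given morning and evening for 3 days, and the stromal vascular fraction was freed with collagenase from biopsies of 300 mg, with the floating layer of adipocytes removed before 3′ single-cell RNA-seq, so cells that float with adipocytes were not sampled. No library of WT mice given rosiglitazone was analysed here, so the drug was compared only within ob/ob. The contrasts ob/ob-Veh against WT-Veh and ob/ob-Rosi against ob/ob-Veh share the ob/ob-Veh libraries.

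Each library held 20132553 to 92475986 unique molecular identifiers (UMIs, each 1 captured molecule), and 126095 cells were kept. Any pair of libraries shared between 7 and 99 cell barcodes, at most 1.05% of the smaller. Leptin mRNA is known to be raised in the fat of ob/ob mice, and in eWAT its level over all cells overlapped between the libraries labelled WT-Veh (0.784 and 0.996 CPM, from 33 and 37 UMIs) and ob/ob-Veh (0.139 and 1.03 CPM, from 7 and 43 UMIs). Per 100 UMIs of the adipocyte gene Adipoq, Lep stood at 28.0 and 42.5 UMIs in eWAT WT-Veh and at 3.95 and 16.2 in eWAT ob/ob-Veh, but at 240 and 390.1 in eWAT ob/ob-Rosi. In iWAT the ratio was 20.1 and 31.6 for WT-Veh, overlapping 36.4 and 15.1 for ob/ob-Veh, and it was 164 and 141 for ob/ob-Rosi. These rest on 11 to 265 Adipoq UMIs per library. Lipid-associated-macrophage-like cells made up 3.85 to 10.4% of the cells in libraries labelled WT-Veh, 3.64 to 9.01% in those labelled ob/ob-Rosi and 0.0764 to 0.25% in those labelled ob/ob-Veh. The ob allele is a point mutation that a 3′ tag does not read, so neither measure identifies a genotype. Group names below mean the libraries labelled so, and every direction rests on those labels. In iWAT WT-Veh replicate 1, 45.6% of the cells, with a median of 971 UMIs, fell in clusters that matched no class and were left unnamed.

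Cells were clustered without the 9 genes and named from markers: progenitor-like (Pi16, Dpp4) and preadipocyte-like fibroblasts, mesothelial-like cells (eWAT only), endothelial cells (EC), perivascular-like macrophages (PVM), non-perivascular-like macrophages (NPVM), other macrophages, dendritic cells (cDC1 and cDC2), B cells (BC), other T or NK cells, neutrophils, ILC2 and Treg, each read below with "-like" understood. In the progenitors, PVM and NPVM of both depots and the preadipocytes of eWAT the ob/ob-Veh cells mostly formed clusters of their own. They did so in the other macrophages of iWAT as well. In the preadipocytes of iWAT the leading cluster of ob/ob-Veh held 59.5% of its cells but also 11.1% of the others. The cDC2 and the mesothelial cells of eWAT were each 1 cluster in all groups, and in the other macrophages of eWAT the leading cluster of ob/ob-Veh held 30.1% of its cells and 27.8% of the others. The cDC2 of iWAT were 1 cluster too, but it held only 3 ob/ob-Veh cells beside 601 of the other groups. In iWAT, cluster 10 of the fibroblasts held 63.8% of the ob/ob-Veh progenitors but 0.558% of the others, and 1 cluster held 99.0% of the ob/ob-Veh PVM but 0.0392% of the others. A level within a class of the first kind therefore compares different clusters between groups.

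Levels are given as UMIs of the gene per 1000000 UMIs of the class in 1 library (CPM), with replicate 1 before replicate 2. A UMI of a 3′ tag counts a molecule whatever its length. Tests were edgeR quasi-likelihood fits on these class sums, with p-values adjusted over all genes of the fit. To be called, a gene needed an adjusted p no higher than 0.05 and a change of 1.1-fold or more. With 2 libraries per group an exact permutation test cannot go below p = 0.33.

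Il1r2, the decoy receptor, was high in the iWAT progenitors of the ob/ob-Veh libraries and low in every other group of that depot. The class held 703 and 716 CPM in ob/ob-Veh (10461 and 6105 UMIs in 2753 and 2558 cells), against 40.7 and 54.1 CPM in WT-Veh and 78.9 and 41.5 CPM in ob/ob-Rosi. The lowest ob/ob-Veh library was above the highest of the others, and the ratio of mean levels was 15 to WT-Veh and 11.8 to ob/ob-Rosi. At least 1 Il1r2 UMI was seen in 76.1% and 67.2% of ob/ob-Veh progenitors, in 17.1% and 16.8% of WT-Veh progenitors and in 25.1% and 11.4% of ob/ob-Rosi progenitors. With each cell thinned to 700 UMIs the shares were 36.4% and 35.7% in ob/ob-Veh, 3.1% and 3.69% in WT-Veh, and 5.67% and 3.08% in ob/ob-Rosi. The WT-Veh replicate 1 value rests on 129 cells and 27 UMIs.

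Preadipocytes of iWAT showed the same order at a lower level. They held 284 and 216 CPM of Il1r2 in ob/ob-Veh, 18.0 and 18.5 CPM in WT-Veh, and 61.6 and 39.7 CPM in ob/ob-Rosi. The groups did not overlap, and ob/ob-Rosi lay above WT-Veh in both libraries, which was not so in progenitors. The summed level of the 12 progenitor markers in these preadipocytes was 5589 and 5253 CPM in ob/ob-Veh, 2791 and 2812 CPM in WT-Veh, and 3408 and 3235 CPM in ob/ob-Rosi, in the same order as Il1r2. That of the 14 preadipocyte markers was 9769 and 13875 CPM in ob/ob-Veh, 28925 and 34166 CPM in WT-Veh, and 17345 and 18333.5 CPM in ob/ob-Rosi, in the reverse order. Their part in the Il1r2 level of preadipocytes was not tested. Of all Il1r2 UMIs of a library, progenitors supplied 87.8% and 81.7% in ob/ob-Veh.

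**Figure D1:**
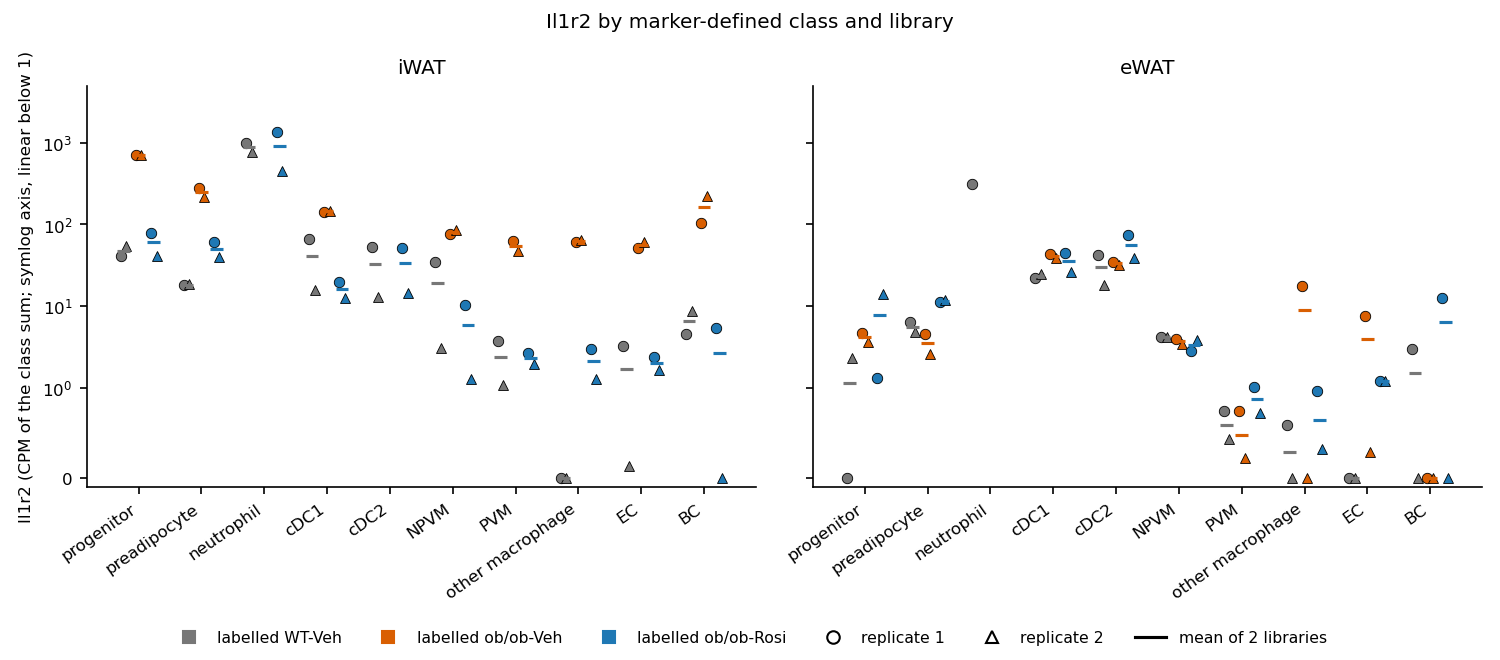
Il1r2 level in CPM (vertical log axis, linear below 1) by cell class in iWAT and eWAT, 1 point per library with at least 20 cells, coloured by labelled group, with a bar at the mean of 2 libraries. The ob/ob-Veh points of iWAT progenitors and preadipocytes, between 216 and 716 CPM, stand above every WT-Veh and ob/ob-Rosi point of the same class, and no eWAT fibroblast point is above 14.2 CPM.

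Within the progenitor class the clusters were themselves mostly of 1 group. In ob/ob-Veh, the fibroblast clusters 9, 10 and 11 of the progenitor class held between 613 and 924 CPM of Il1r2, while the progenitor clusters made up mostly of WT-Veh and ob/ob-Rosi cells (6, 7, 8 and 14) held 0 to 113 CPM. Cluster 9 also held 33 cells of ob/ob-Rosi replicate 1, at 42.0 CPM beside 621 and 613 CPM in ob/ob-Veh. Of the preadipocyte clusters, 3 had at least 20 cells in libraries of all 3 groups. Cluster 2 held 434 and 259 CPM in ob/ob-Veh, 17.0 CPM in WT-Veh replicate 2, and 77.9 and 74.2 CPM in ob/ob-Rosi. In the same cells the progenitor marker Pi16 was at 2585 and 3999 CPM in ob/ob-Veh (43 and 51 cells). It was at 577 CPM in WT-Veh replicate 2 and at 655 and 579 CPM in ob/ob-Rosi, so it moved the same way as Il1r2. Its part in the Il1r2 level of cluster 2 was not tested. In clusters 3 and 4 no such library held more than 201 CPM of Pi16. Cluster 4 held 316 and 195 CPM in ob/ob-Veh, 0 CPM in WT-Veh replicate 2, and 17.2 and 24.2 CPM in ob/ob-Rosi. In cluster 3 the level was 188 CPM in ob/ob-Veh replicate 2, 48.0 and 30.1 CPM in WT-Veh, and 71.9 and 37.2 CPM in ob/ob-Rosi.

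**Figure D2:**
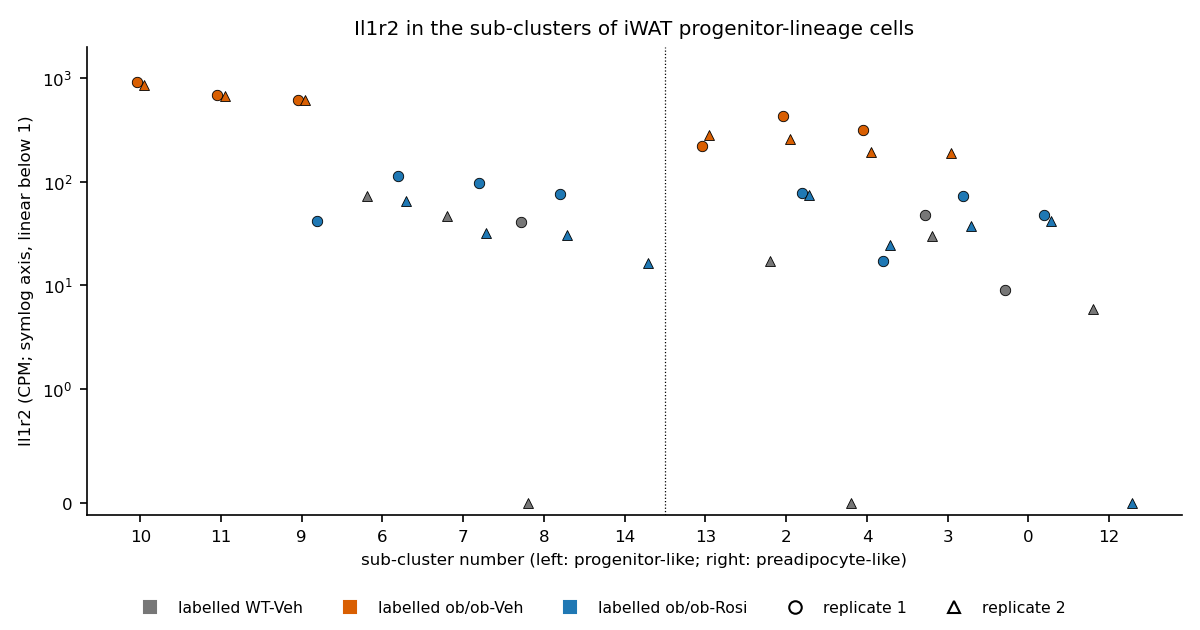
Il1r2 level in CPM (log axis, linear below 1) in each fibroblast cluster of iWAT, progenitor-like to the left and preadipocyte-like to the right of the dotted line, 1 point per library with at least 20 cells in the cluster, coloured by labelled group. The ob/ob-Veh points lie between 188 and 924 CPM and the WT-Veh and ob/ob-Rosi points at or below 113 CPM.

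Neutrophils, which are known carriers of IL1R2, were the other class with a high level. In iWAT neutrophils held 989 and 786 CPM of Il1r2 in WT-Veh and 1370 and 449 CPM in ob/ob-Rosi, and the ob/ob-Veh libraries had only 6 and 4 such cells. The summed level of the 12 neutrophil markers in iWAT progenitors was 64.7 and 20.5 CPM in WT-Veh, 21.0 and 37.6 CPM in ob/ob-Veh, and 24 and 24.5 CPM in ob/ob-Rosi. The ob/ob-Veh sums lay between those of the WT-Veh libraries, and 1 and 2 of the 12 markers were at 0 in ob/ob-Veh. The macrophage list of 11 genes summed to 931 and 897 CPM in ob/ob-Veh progenitors, 653 and 549 CPM in WT-Veh, and 885 and 819 CPM in ob/ob-Rosi.

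Low Il1r2 levels were found in cells of other lineages in the iWAT ob/ob-Veh libraries. PVM held 62.4 and 46.7 CPM against 3.7 and 1.07 CPM in WT-Veh, EC held 51.4 and 60.9 CPM against 3.23 and 0.135 CPM, and B cells held 103 and 221 CPM against 4.59 and 8.65 CPM. Per 100 UMIs of the progenitor marker Pi16, the ob/ob-Veh libraries held 20.5 and 19.6 Il1r2 UMIs in progenitors, 23.9 and 26.0 in macrophages, 19.0 and 24.3 in EC, and 13.6 and 37.5 in B cells (from 3 and 12 Il1r2 UMIs), so the ratio of these genes was near that of progenitors in macrophages and EC. At least 1 Il1r2 UMI was seen in 12.0% and 11.4% of the ob/ob-Veh macrophages (median 1696 and 1657 UMIs per cell, against 2925 and 2175 in progenitors). Pi16 itself was found in 38.7 to 44.4% of macrophages, EC and B cells of those libraries, so low Il1r2 levels in these classes cannot be told apart from free RNA. Preadipocytes held 59.5 and 46.0 Il1r2 UMIs per 100 Pi16 UMIs. Among dendritic cells, cDC1 held 143 and 146 CPM in ob/ob-Veh against 66.7 and 15.7 CPM in WT-Veh and 19.9 and 12.4 CPM in ob/ob-Rosi.

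The eWAT fibroblasts held little Il1r2 in every group. Progenitors of eWAT held 75 and 24 Il1r2 UMIs in ob/ob-Veh (2228 and 976 cells), against 0 and 2 UMIs in WT-Veh and 1 and 4 UMIs in ob/ob-Rosi. In ob/ob-Veh, the mean iWAT level was 171 times that of eWAT in progenitors and 70.4 times in preadipocytes. The eWAT preadipocytes held 6.3 and 4.8 CPM in WT-Veh, 4.5 and 2.6 CPM in ob/ob-Veh, and 11.3 and 11.9 CPM in ob/ob-Rosi. There Il1r2 was higher in ob/ob-Rosi than in ob/ob-Veh by 1.81 on the log2 scale (edgeR adjusted p = 0.0175), a call lost in thinned cells (adjusted p = 0.24), without ob/ob-Veh replicate 2 (0.182) and without ob/ob-Rosi replicate 2 (0.112). Higher eWAT levels were in neutrophils (317 CPM in WT-Veh replicate 1, the only library with 20 such cells), cDC2 (18.0 to 74.5 CPM) and cDC1 (22.1 to 44.8 CPM).

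Il1r1, the signalling receptor for IL-1, was a fibroblast gene in both depots. Unlike Il1r2, it did not separate ob/ob-Veh from WT-Veh in iWAT progenitors. In iWAT progenitors it held 84.3 and 34.7 CPM in WT-Veh, 82.9 and 96.3 CPM in ob/ob-Veh, and 55.5 and 41.2 CPM in ob/ob-Rosi, and WT-Veh overlapped ob/ob-Veh. The difference between ob/ob-Veh and WT-Veh was 0.63 on the log2 scale (edgeR adjusted p = 0.411) and that between ob/ob-Rosi and ob/ob-Veh was -0.75 (edgeR adjusted p = 0.229). Preadipocytes held more Il1r1 than progenitors did in 12 of 12 libraries. Their iWAT levels were 174 and 66.1 CPM in WT-Veh, 160 and 194 CPM in ob/ob-Veh, and 212 and 134 CPM in ob/ob-Rosi, and their eWAT levels were 120 and 103 CPM in WT-Veh, 80.5 and 83.0 CPM in ob/ob-Veh, and 164 and 122 CPM in ob/ob-Rosi. The eWAT groups did not overlap, with ob/ob-Veh lowest and ob/ob-Rosi highest, which was also the order of Il1r2 in eWAT preadipocytes. But over 32 tests of Il1r1 in single classes of both depots edgeR called 0 (5 at an unadjusted p under 0.05) and DESeq2 called 1. Only 20 of these tests were in the contrasts with ob/ob-Veh, where 3.47 to 9.53% of all gene and class pairs were called. There 3 of the 20 were at an unadjusted p under 0.05, as were 9.28 to 39.0% of all genes per single class. In all macrophages of iWAT pooled, Il1r1 held 1.8 and 0.799 CPM in WT-Veh and 4.86 and 10.7 CPM in ob/ob-Veh, and that difference was called (log2 2.45, edgeR adjusted p = 0.0277). The call was lost without WT-Veh replicate 2 (adjusted p = 0.0839), without ob/ob-Veh replicate 1 (0.132) and without ob/ob-Veh replicate 2 (0.162), and these levels rest on 11 to 56 UMIs in cells of which 39.0 to 41.4% held a Pi16 UMI in ob/ob-Veh.

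The ratio of decoy to signalling receptor transcripts followed Il1r2. In iWAT progenitors there were 8.48 and 7.44 Il1r2 UMIs per Il1r1 UMI in ob/ob-Veh, 0.482 and 1.56 in WT-Veh, and 1.42 and 1.01 in ob/ob-Rosi. In preadipocytes the ratio was 1.78 and 1.12 in ob/ob-Veh, 0.104 and 0.280 in WT-Veh, and 0.291 and 0.296 in ob/ob-Rosi. It was 0.0686 and 0.0570 in the eWAT progenitors of ob/ob-Veh. These ratios carry the choice of Il1r2 and are given without a test.

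Il1rap, the co-receptor that IL1R1 and ST2 share, was higher in iWAT ob/ob-Veh progenitors than in the other groups. It held 33.0 and 52.0 CPM in ob/ob-Veh, 15.1 and 16.2 CPM in WT-Veh, and 15.4 and 13.6 CPM in ob/ob-Rosi, without overlap. The fall from ob/ob-Veh to ob/ob-Rosi passed the test (log2 -1.39 ± 0.28 SE, edgeR adjusted p = 0.0351) and the difference from WT-Veh did not (log2 1.28 ± 0.30 SE, edgeR adjusted p = 0.0820). The call was lost when any of the 4 libraries compared was left out, with adjusted p between 0.0730 and 0.335 (without ob/ob-Rosi replicate 1 and without ob/ob-Veh replicate 2). Preadipocytes of iWAT held 25.4 and 42.5 CPM in ob/ob-Veh, 13.9 and 9.04 CPM in WT-Veh, and 23.0 and 15 CPM in ob/ob-Rosi. The highest Il1rap level of iWAT was in neutrophils, at 188 and 17.9 CPM in WT-Veh and 226 and 85.4 CPM in ob/ob-Rosi, from 1 to 22 UMIs per library.

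**Figure D3:**
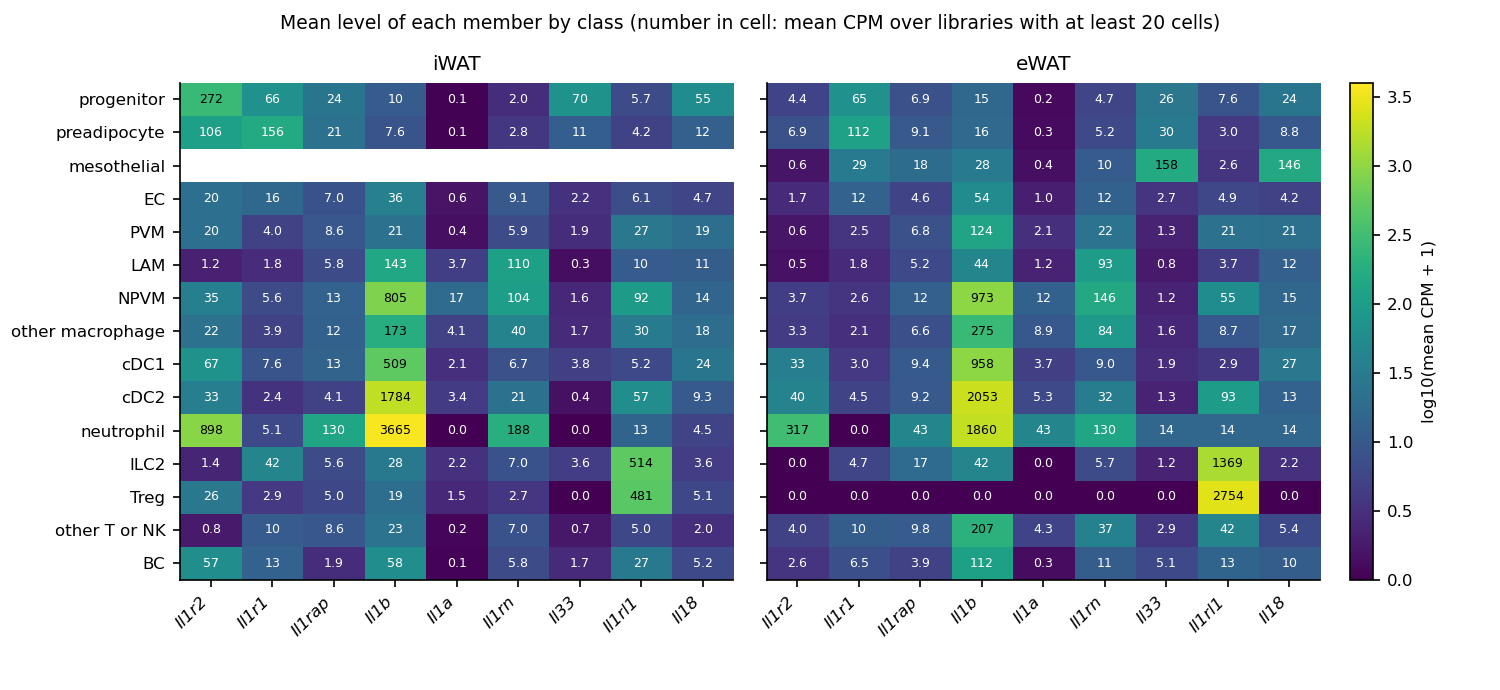
Mean CPM of each of the 9 genes (columns) in each class (rows) over libraries with at least 20 cells, printed in each field and coloured as log10(mean CPM + 1), for iWAT and eWAT. Il1b is highest in neutrophils (3665 CPM in iWAT) or cDC2 (2053 CPM in eWAT), Il1rl1 in ILC2 or Treg, Il33 in mesothelial cells or progenitors, and Il1r1 in preadipocytes.

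Il1b, the gene for IL-1β, was a gene of cDC2, neutrophils and NPVM. In eWAT cDC2 it held 1989 and 2470 CPM in WT-Veh, 1884 and 1848 CPM in ob/ob-Veh, and 2083 and 2047 CPM in ob/ob-Rosi, a narrow range for 3 groups. Neutrophils of iWAT held 2354 and 4483 CPM in WT-Veh and 4447 and 3375 CPM in ob/ob-Rosi. The progenitors of iWAT held 6.35 to 15.1 CPM, while the iWAT neutrophils were high in both Il1b and Il1r2.

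Among iWAT NPVM, Il1b and Il1a were both lowest in ob/ob-Veh. Il1b held 895 and 1239 CPM in WT-Veh, 292 and 281 CPM in ob/ob-Veh, and 1207 and 915 CPM in ob/ob-Rosi. It was lower in ob/ob-Veh than in WT-Veh by 2.23 on the log2 scale (± 0.43 SE, edgeR adjusted p = 0.0196) and higher in ob/ob-Rosi than in ob/ob-Veh by 2.24 (edgeR adjusted p = 0.00814). Of the NPVM, 19.4% and 21.8% had an Il1b UMI in ob/ob-Veh, against 45.2% and 56.1% in WT-Veh and 60.3% and 55.9% in ob/ob-Rosi, and with cells thinned to 700 UMIs the shares were 13.2% and 13.6%, against 31.5% and 34.6% and against 38.0% and 34.2%. Il1a, the gene for IL-1α, held 2.84 and 3.38 CPM in ob/ob-Veh, 42.7 and 18.1 CPM in WT-Veh, and 20.9 and 15.4 CPM in ob/ob-Rosi, with log2 differences of -3.39 ± 0.58 (SE, edgeR adjusted p = 0.0133) and 2.89 (edgeR adjusted p = 0.00814). In progenitors, read as the background for Il1b, 2.5 to 7.75% of cells had an Il1b UMI. The ob/ob-Veh values of Il1a rest on 4 and 3 UMIs.

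Of all genes tested in iWAT NPVM, 6.6% were called for ob/ob-Veh against WT-Veh and 21.8% in the other contrast. Those 4 calls of Il1b and Il1a were lost when either ob/ob-Veh library was left out, which leaves 1 library whose spread is taken from the other groups: adjusted p was 0.273 and 0.243 for Il1b against WT-Veh and 0.219 and 0.131 for Il1a, with log2 differences of -2.27 and -2.21 and of -3.28 and -3.52. For ob/ob-Rosi against ob/ob-Veh, adjusted p was 0.147 and 0.137 for Il1b and 0.139 and 0.107 for Il1a. The clusters differed too, since 98.3% of the ob/ob-Veh NPVM were in 1 cluster that held 0.968% of the others. The leading genes of that cluster included the NPVM markers Fn1 and Ccr2 but also the cDC2 marker Tnip3.

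NPVM of eWAT gave a weaker form of the same order. Il1b held 1187 and 1222 CPM in WT-Veh, 673 and 667 CPM in ob/ob-Veh, and 723 and 1364 CPM in ob/ob-Rosi, and no contrast was called. Other macrophages of iWAT held 159 and 313 CPM in WT-Veh, 62.2 and 24.5 CPM in ob/ob-Veh, and 105 and 375 CPM in ob/ob-Rosi. There Il1b was called in both contrasts (log2 -2.63, edgeR adjusted p = 0.00629, and log2 2.58, edgeR adjusted p = 0.00216). With finer clustering, which changed the first clustering of all cells only, the differences were -0.27 and 0.83 (edgeR adjusted p = 0.751 and 0.232). The later clustering that divides the macrophages kept its settings. Without WT-Veh replicate 2 the first difference was -1.73 (edgeR adjusted p = 0.409), and without ob/ob-Rosi replicate 2 the second was 1.37 (edgeR adjusted p = 0.0598).

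Il1rn, the antagonist, was found in NPVM, lipid-associated macrophages and neutrophils. In eWAT NPVM it held 132 and 124 CPM in WT-Veh, 143 and 295 CPM in ob/ob-Veh, and 125 and 60.1 CPM in ob/ob-Rosi. The fall from ob/ob-Veh to ob/ob-Rosi was called (log2 -1.18 ± 0.34 SE, edgeR adjusted p = 0.0375), but without ob/ob-Veh replicate 2, the highest library, it was -0.65 (edgeR adjusted p = 0.393) and without ob/ob-Rosi replicate 2, the lowest, it was -0.73 (edgeR adjusted p = 0.264). In thinned cells it was -1.23 and not called (edgeR adjusted p = 0.0597). In iWAT NPVM Il1rn held 117 and 144 CPM in WT-Veh, 83.7 and 110 CPM in ob/ob-Veh, and 115 and 55.5 CPM in ob/ob-Rosi, and was not called. In the eWAT class of other T or NK cells Il1rn was also called for ob/ob-Rosi against ob/ob-Veh (log2 -3.11, edgeR adjusted p = 0.0468), but nearly all its UMIs in ob/ob-Veh came from 1 cluster of that class whose leading genes (Cd209a, Lyz1, H2-Ab1) are myeloid. That cluster held 60 of the 60 and 62 of the 64 Il1rn UMIs of the class in ob/ob-Veh, from 51 and 27 cells, and 1 of 3 and 1 of 4 in ob/ob-Rosi, from 10 and 8 cells. Without the cluster, a setting chosen after seeing the data, 0 and 2 Il1rn UMIs were left in ob/ob-Veh and Il1rn did not pass the filter on low counts. Over all cells, iWAT held 39.5 and 25.4 Il1rn UMIs per 100 Il1b UMIs in ob/ob-Veh, 28.9 and 11.2 in WT-Veh, and 20.1 and 9.53 in ob/ob-Rosi, so that replicates differed as much as groups.

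Il18, the gene for interleukin-18, was read by level in eWAT mesothelial cells and iWAT progenitors, which need not hold most of its UMIs. It also passed the filter on low counts in other classes of both depots, such as EC, PVM and preadipocytes. Mesothelial cells held 98.8 and 139 CPM in WT-Veh, 102 and 165 CPM in ob/ob-Veh, and 183 and 188 CPM in ob/ob-Rosi. Progenitors of iWAT held 33.1 and 45.3 CPM in WT-Veh, 69.0 and 57.5 CPM in ob/ob-Veh, and 64.5 and 58.4 CPM in ob/ob-Rosi. WT-Veh lay below ob/ob-Rosi in both classes without overlap, and over 52 tests of Il18 edgeR and DESeq2 each called 0, with 7 at an unadjusted p under 0.05. Of these tests, 32 were in the contrasts with ob/ob-Veh, where 3.47 to 9.53% of all gene and class pairs were called. There 5 of the 32 were at an unadjusted p under 0.05, as were 9.28 to 39.0% of all genes per single class.

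Il33, an alarmin stored in the nucleus of stromal cells, was highest in the mesothelial cells of eWAT and in the progenitors of iWAT. Mesothelial cells held 89.1 and 249 CPM in WT-Veh, 124 and 165 CPM in ob/ob-Veh, and 128 and 193 CPM in ob/ob-Rosi, and the groups overlapped. The iWAT progenitors, which supplied 54.5 to 90.4% of all Il33 UMIs of their libraries, held 99.4 and 67.6 CPM in WT-Veh, 44.7 and 38.3 CPM in ob/ob-Veh, and 96.0 and 76.3 CPM in ob/ob-Rosi. The ob/ob-Veh libraries were below all others. Il33 was higher in ob/ob-Rosi than in ob/ob-Veh (log2 1.19 ± 0.27 SE, edgeR adjusted p = 0.0488), and the difference of ob/ob-Veh from WT-Veh was not called (log2 -1.06 ± 0.28 SE, edgeR adjusted p = 0.116). The call was lost when any of the 4 libraries was left out (adjusted p from 0.123, without ob/ob-Rosi replicate 1, to 0.404, without ob/ob-Veh replicate 2) and with library totals in place of TMM scaling (0.0741). In the pooled macrophages of iWAT the order was the opposite, at far lower levels: 4.72 and 3.42 CPM in ob/ob-Veh, 0.327 and 0.450 CPM in WT-Veh, and 1.3 and 0.585 CPM in ob/ob-Rosi, from 2 to 33 UMIs per library. Il33 was called there in both contrasts (log2 3.06, edgeR adjusted p = 0.0230, and log2 -1.87, edgeR adjusted p = 0.0499). Both calls were lost in thinned cells (adjusted p = 0.0756 and 0.0837) and without either ob/ob-Veh library (0.0969 to 0.170 and 0.130 to 0.269), the first also without WT-Veh replicate 2 (0.0518), and the second also without ob/ob-Rosi replicate 1 (0.0958) or 2 (0.320), with DESeq2 (0.0615), with finer clustering (0.0601) and without the cells of highest doublet score (0.0584). At these levels the Il33 of macrophages cannot be told apart from free RNA.

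In the eWAT preadipocytes Il33 held 43.6 and 19.0 CPM in WT-Veh, 8.26 and 15.4 CPM in ob/ob-Veh, and 40.3 and 52.9 CPM in ob/ob-Rosi. Again the ob/ob-Veh libraries were the lowest. It was lower in ob/ob-Veh than in WT-Veh (log2 -1.55 ± 0.42 SE, edgeR adjusted p = 0.0488) and higher in ob/ob-Rosi than in ob/ob-Veh (log2 2.11 ± 0.42 SE, edgeR adjusted p = 0.0120). The first call was kept under 7 of 15 alternatives, and without WT-Veh replicate 1 the difference was -0.75 (edgeR adjusted p = 0.414). The second was kept under 13 of 15 and lost without ob/ob-Veh replicate 1 (adjusted p = 0.109) and also without ob/ob-Rosi replicate 2 (adjusted p = 0.118). The macrophage list summed to 300 and 563 CPM in ob/ob-Veh preadipocytes of eWAT, 2262 and 1596 CPM in WT-Veh, and 1853 and 1683 CPM in ob/ob-Rosi, so it moved the same way as Il33, and its part in the result was not tested. In the PVM of eWAT, Il33 itself was at 0.870 to 1.85 CPM.

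Il1rl1, the IL-33 receptor gene, was at its highest per cell in lymphoid classes that were scarce. The eWAT ILC2 held 2064 and 1654 CPM in ob/ob-Veh (158 and 128 cells, of which 91.8% and 91.4% had an Il1rl1 UMI) and 390 CPM in ob/ob-Rosi replicate 2 (30 cells). Treg of eWAT held 2754 CPM in ob/ob-Veh replicate 1, from 22 cells. In iWAT, ILC2 held 265 and 665 CPM in WT-Veh and 716 and 411 CPM in ob/ob-Rosi, and Treg held 131 and 506 CPM and 719 and 568 CPM.

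Macrophages and dendritic cells carried lower Il1rl1 levels that differed between groups. The eWAT NPVM held 119 and 117 CPM in ob/ob-Veh, 22.9 and 13.4 CPM in WT-Veh, and 41.5 and 14.5 CPM in ob/ob-Rosi. The difference from WT-Veh was 2.58 on the log2 scale (± 0.42 SE, edgeR adjusted p = 0.00181) and that of ob/ob-Rosi from ob/ob-Veh was -2.06 (± 0.38 SE, edgeR adjusted p = 0.00278), and both calls were kept under all 15 alternatives tried, where 7.01% and 10.6% of all genes of the class were called. The digestion genes moved the same way in these cells, with 4 of 10 called higher (median log2 0.89) and 6 of 10 called lower (median -1.28), and their part in the Il1rl1 level was not tested. Of the ob/ob-Veh NPVM, 78.6% were in 1 cluster that held 0.685% of the others and was named from 4 detected NPVM markers. In the first clustering, of all eWAT cells, 782 and 455 ob/ob-Veh cells were in a cluster named cDC2. Another cluster of that name held 213 and 195, and only 185 and 195 were named cDC2 in the end. Whether the class holds the same cell type in all groups was not tested. An Il1rl1 UMI was seen in 38.5% and 34.6% of the ob/ob-Veh NPVM, 4.55% and 6.28% of the WT-Veh NPVM, and 9.34% and 4.37% of the ob/ob-Rosi NPVM. At 700 UMIs per cell the shares were 10.6% and 7.11% (ob/ob-Veh), 1.62% and 1.45% (WT-Veh), and 2.17% and 0.42% (ob/ob-Rosi). Of the 344 ob/ob-Veh replicate 1 NPVM with an Il1rl1 UMI, 334 also had a UMI of the monocyte and macrophage receptors Csf1r or Ccr2, and 14 had one of Gata3 or Cpa3, which mark ILC2 and mast cells. In replicate 2 these were 165 and 3 of 170 cells. But Ccr2 is also among the markers that named NPVM, and Csf1r among those of macrophages. The shares in NPVM without an Il1rl1 UMI were not counted, so these counts do not tell which cells the Il1rl1 RNA came from. Progenitors of the same libraries, taken as the background, had an Il1rl1 UMI in 1.57% and 1.33% of cells at a higher depth (median 7502.5 and 6223.5 UMIs, against 4011 and 3656.5 in NPVM).

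PVM and cDC2 of eWAT were called too. PVM held 44.6 and 42.7 CPM of Il1rl1 in ob/ob-Veh, 7.77 and 6.09 CPM in WT-Veh, and 14.1 and 12.1 CPM in ob/ob-Rosi (log2 2.54 ± 0.25 SE, edgeR adjusted p = 0.00407, and log2 -1.59, edgeR adjusted p = 0.0190). The cDC2 held 178 and 171 CPM in ob/ob-Veh, 51.6 and 30.6 CPM in WT-Veh, and 95.8 and 30.1 CPM in ob/ob-Rosi (log2 1.95 ± 0.45 SE, edgeR adjusted p = 0.0491). Without WT-Veh replicate 2 the PVM call against WT-Veh was lost (log2 2.36, adjusted p = 0.0760). The PVM call for ob/ob-Rosi was lost without WT-Veh replicate 2, either ob/ob-Veh library or ob/ob-Rosi replicate 2 (adjusted p 0.0506 to 0.153) and in thinned cells (0.0528), and the cDC2 call was lost when any of the 4 libraries compared was left out (0.0852 to 0.297).

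In iWAT the higher level was seen in cells named NPVM, and PVM gave no call. Of the ob/ob-Veh NPVM, 98.3% were in 1 cluster, named from 4 detected NPVM markers. Its leading genes included the NPVM markers Fn1 and Ccr2, the cDC2 marker Tnip3 and Il1rl1 itself. In the first clustering, of all iWAT cells, 669 and 406 ob/ob-Veh cells were in a cluster named cDC2, but only 3 were named cDC2 in the end. Whether this class holds the same cell type in all groups was not tested. NPVM of iWAT held 197 and 217 CPM of Il1rl1 in ob/ob-Veh, 32.0 and 36.1 CPM in WT-Veh, and 32.9 and 34.9 CPM in ob/ob-Rosi, and supplied 52.8% and 49.6% of all Il1rl1 UMIs of the ob/ob-Veh libraries. The log2 differences were 2.23 ± 0.34 (SE, edgeR adjusted p = 0.00649) and -2.25 (edgeR adjusted p = 0.00387), and 2 of 10 digestion genes were called higher and 2 lower in these contrasts. Leaving out ob/ob-Veh replicate 1 or 2 raised the adjusted p to 0.0961 and 0.113 against WT-Veh, and to 0.0932 and 0.0746 for ob/ob-Rosi, at log2 differences between 2.16 and 2.30 in size. PVM of iWAT held 22.0 and 14.9 CPM in ob/ob-Veh, 40.7 and 19.9 CPM in WT-Veh, and 23.1 and 41.4 CPM in ob/ob-Rosi. Other macrophages of iWAT held 16 and 21.2 CPM in ob/ob-Veh and 48.7 and 34.7 CPM in ob/ob-Rosi (log2 1.34, edgeR adjusted p = 0.00611), a call lost with DESeq2 (adjusted p = 0.0635), in thinned cells (0.115), without ob/ob-Veh replicate 1 (0.0870) and also without ob/ob-Rosi replicate 1 (0.0935).

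The depots were then compared through the difference of their differences, over 52 pairs of gene and class with Il1r2 left out. For ob/ob-Veh against WT-Veh, 1 pair was called, where 0.564% of all gene and class pairs were: Il1rl1 in PVM, with log2 -0.89 in iWAT and 2.54 in eWAT, a difference of -3.42 ± 0.55 (SE, edgeR adjusted p = 0.0173). For ob/ob-Rosi against ob/ob-Veh, 0 of 52 pairs were called by edgeR (12 at an unadjusted p under 0.05, and 0.25% of all pairs called), and the Il1rl1 pair in PVM was at 2.62 (edgeR adjusted p = 0.0759). The share of all pairs at such an unadjusted p is not given here, so the 12 are not read as many or few.

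**Figure D4:**
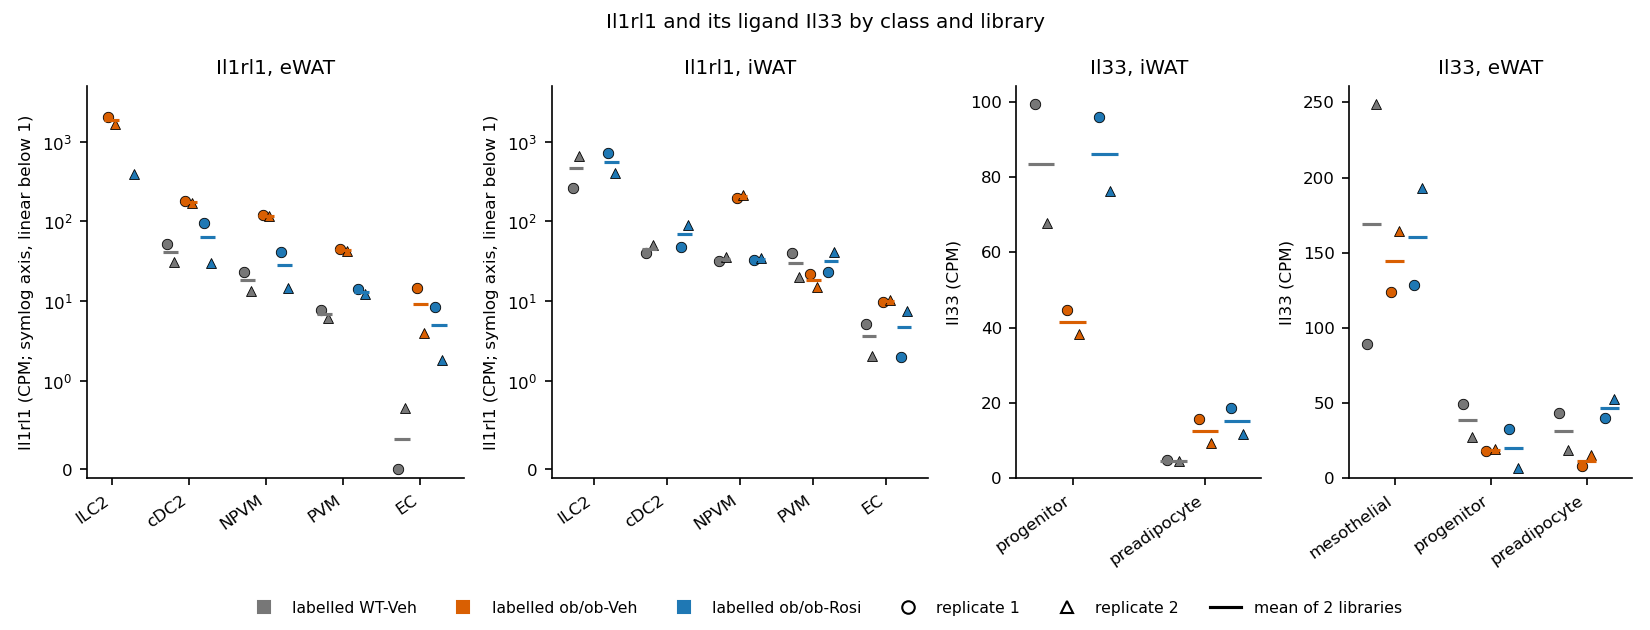
CPM of Il1rl1 (log axis, linear below 1) and of Il33 (linear axis) by class and depot, 1 point per library coloured by labelled group, with a bar at the mean of 2 libraries. The ob/ob-Veh points of Il1rl1 in NPVM (117 to 217 CPM) lie above the other groups in both depots, and those of Il33 in iWAT progenitors (38.3 and 44.7 CPM) lie below them.

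The tested pairs of member and class were then counted over all classes with enough cells in every library. The list was made with earlier results of these data known, so the counts describe it and do not test the family against other genes. In eWAT, 4 of 57 pairs were called between ob/ob-Veh and WT-Veh (3 higher, 1 lower), where 3.47% of all gene and class pairs were called (1.44% higher, 2.03% lower). Between ob/ob-Rosi and ob/ob-Veh 6 of 57 were called (2 higher, 4 lower, of which 1 is the Il1rn pair of the myeloid-led cluster), beside 3.53% of all pairs (1.98% higher, 1.55% lower). In iWAT the counts were 8 of 48 (5 higher, 3 lower), beside 4.32% of all pairs (2.08% higher, 2.23% lower), and 12 of 48 (5 higher, 7 lower), beside 9.53% (5.24% higher, 4.29% lower). Il1r2 in classes other than fibroblasts made up 4 of the 8 and 5 of the 12, and without it 4 (1 higher, 3 lower) and 7 (5 higher, 2 lower) of 42 pairs were called, so the share of higher calls rests on Il1r2 in the first contrast and that of lower calls in the second.

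Between ob/ob-Rosi and WT-Veh, 0 of 71 pairs were called in eWAT by edgeR and 0 by DESeq2, with 12 at an unadjusted p under 0.05 and 0.0613% of all pairs called. Of all genes, 1.63 to 7.34% per class were at such a p, and 5 of the 12 were Il1rl1. In iWAT 0 of 70 were called by either tool, with 4 at an unadjusted p under 0.05, where 0.897 to 7.18% of all genes per class were, and 0.00656% of all pairs called. The members did not all enter each test. In the progenitors of eWAT, 4 of the 9 genes passed the filter on low counts (Il1r1, Il1b, Il33 and Il18), in those of iWAT 8 did (Il1a did not), and in NPVM 6 (eWAT) and 7 (iWAT) did.

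**Figure D5:**
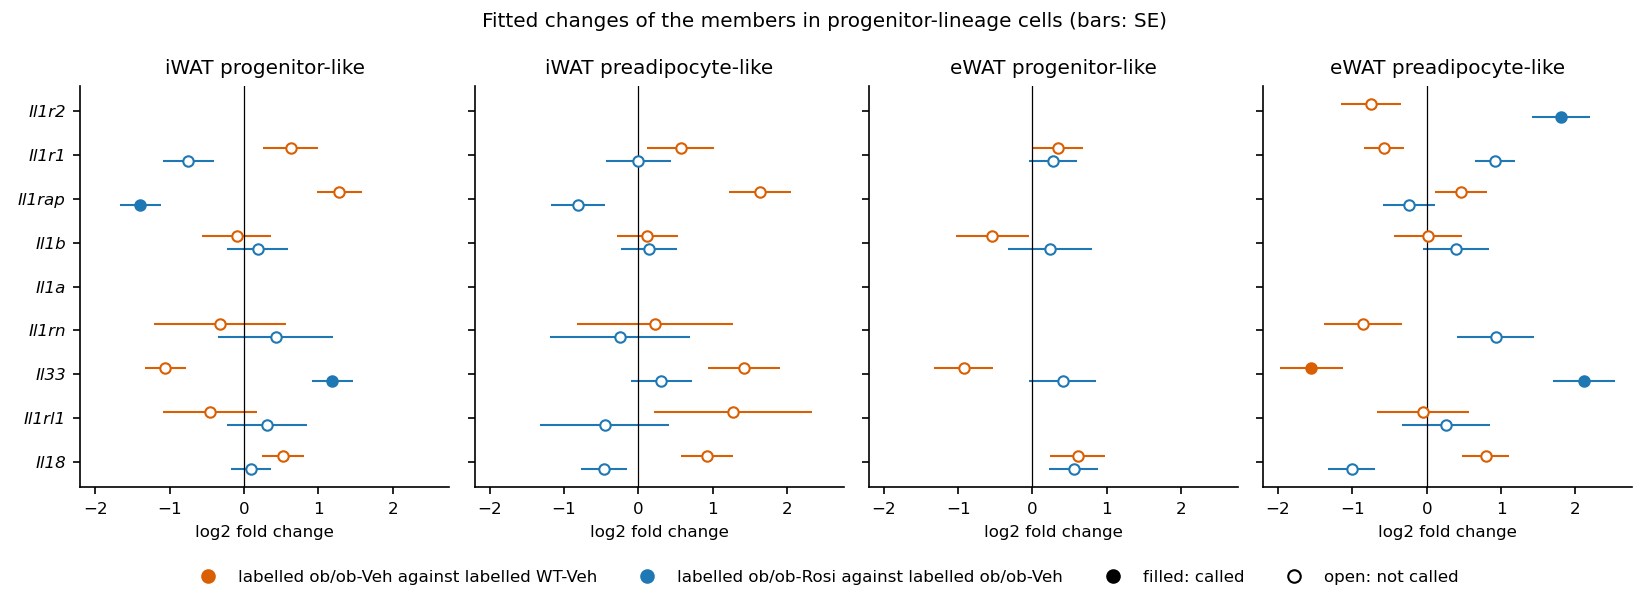
Log2 fold change (horizontal axis, bars the standard error) of each gene tested in the progenitors and preadipocytes of each depot, for ob/ob-Veh against WT-Veh and for ob/ob-Rosi against ob/ob-Veh, with called genes as filled points. Il1rap (-1.39) and Il33 (1.19) are the filled points of iWAT, and the contrasts share the ob/ob-Veh libraries.

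The rest of the pathway was read in fibroblasts from a list of 83 genes: 23 of signalling, 12 of IL-1 processing, 11 other ligands and receptors, 27 inflammatory targets and 10 genes that tissue digestion is known to raise. That list too was made with earlier results of these data known, so its counts are descriptions. Calls of its single genes come from the fit of all libraries and were not followed when a library was left out. In the iWAT progenitors edgeR and DESeq2 called 0 of the 22 signalling genes tested, with 1 (ob/ob-Veh against WT-Veh) and 2 (ob/ob-Rosi against ob/ob-Veh) at an unadjusted p under 0.05 (16.8% and 23.4% of all genes of the class), and their median log2 difference between ob/ob-Veh and WT-Veh was 0.17 beside 0.01 over all genes. Il1rl2, which codes for the IL-36 receptor and lies beside Il1r1, held 285 and 372 CPM in ob/ob-Veh, 119 and 68.1 CPM in WT-Veh, and 90.9 and 59.3 CPM in ob/ob-Rosi (log2 1.77, edgeR adjusted p = 0.0366, and log2 -1.98, edgeR adjusted p = 0.0158). In iWAT preadipocytes it held 241 and 319 CPM in ob/ob-Veh, 77.1 and 54.4 CPM in WT-Veh, and 92.2 and 58.5 CPM in ob/ob-Rosi, and both contrasts were called there too (edgeR adjusted p = 0.0374 and 0.0406). In both classes the ob/ob-Veh libraries lay above all others, and WT-Veh overlapped ob/ob-Rosi.

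Of the inflammatory targets in iWAT progenitors, 1 of 21 rose from WT-Veh to ob/ob-Veh, and 1 rose and 6 fell from ob/ob-Veh to ob/ob-Rosi, where 1.47% and 3.35% of all genes of the class were called. Mmp3, a matrix metalloproteinase, held 45.2 and 32.6 CPM in WT-Veh, 365 and 307 CPM in ob/ob-Veh, and 63.9 and 60.1 CPM in ob/ob-Rosi (log2 3.07, edgeR adjusted p = 0.00556, and log2 -2.30, edgeR adjusted p = 0.00414). Il6, a cytokine that IL-1 is known to induce, held 156 and 185 CPM in ob/ob-Veh, 79.8 and 71.7 CPM in WT-Veh, and 54.2 and 15 CPM in ob/ob-Rosi (log2 -2.19, edgeR adjusted p = 0.0454 between the ob/ob groups). Its ob/ob-Veh level lay in cluster 9 (200.2 and 315 CPM), while cluster 10, which held most ob/ob-Veh progenitors, was at 24.7 and 23.1 CPM. Hp, which codes for the acute-phase protein haptoglobin, was the target that rose, from 0.604 and 1.29 CPM in ob/ob-Veh to 16.7 and 4.71 CPM in ob/ob-Rosi (log2 3.65, edgeR adjusted p = 0.0340). The median of the targets was 0.27 and -0.88 on the log2 scale in these contrasts, beside 0.01 and -0.02 over all genes.

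In iWAT preadipocytes 2 of 21 targets rose and 2 fell from ob/ob-Veh to ob/ob-Rosi, where 1.39% of all genes of the class were called. Saa3, an acute-phase gene, held 1.39 and 0 CPM in ob/ob-Veh and 45.3 and 208 CPM in ob/ob-Rosi (log2 7.72, edgeR adjusted p = 0.0264), and Hp held 0.924 and 1.57 CPM against 33.5 and 19.2 CPM (log2 4.35, edgeR adjusted p = 0.0299). Lif, a cytokine of the IL-6 family, fell from 11.1 and 10.1 CPM to 1.55 and 1.28 CPM (log2 -2.87, edgeR adjusted p = 0.0416), and Ptgs2, which codes for cyclooxygenase-2, fell from 66.5 and 79.6 CPM to 9.06 and 15.8 CPM (log2 -2.54, edgeR adjusted p = 0.0192). Against WT-Veh, where it held 13.1 and 17.5 CPM, Ptgs2 was called higher in ob/ob-Veh (log2 2.21, edgeR adjusted p = 0.0278).

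The summed level of the digestion genes was higher in both ob/ob-Veh libraries than in all others in the progenitors of each depot, and the groups overlapped in preadipocytes. In the progenitors of iWAT the sum was 16718 and 15696 CPM in ob/ob-Veh, 11756 and 13277 CPM in WT-Veh, and 9542 and 9697 CPM in ob/ob-Rosi. In eWAT progenitors it was 19119 and 18210.2 CPM in ob/ob-Veh, 5442 and 6433 CPM in WT-Veh, and 6743 and 3299.6 CPM in ob/ob-Rosi. It was 11931 and 14255.5 CPM in ob/ob-Veh, 12572 and 9124 CPM in WT-Veh, and 12772 and 9795 CPM in ob/ob-Rosi in iWAT preadipocytes, and 6661 and 7543 CPM, 6283 and 7190 CPM, and 7195 and 4554.5 CPM for the same groups in eWAT preadipocytes. Their part in the levels of the targets was not tested.

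In eWAT progenitors 11 of 18 targets rose in ob/ob-Veh against WT-Veh, and 1 rose and 11 fell in ob/ob-Rosi against ob/ob-Veh, where 4.57% and 3.43% of all genes of the class were called. The class had 2228 and 976 cells in ob/ob-Veh, 216 and 143 in WT-Veh, and 239 and 52 in ob/ob-Rosi. Its leading ob/ob-Veh cluster held 68.5% of the ob/ob-Veh cells and 4% of the others. The 12 progenitor markers summed to 10805 and 10837 CPM in ob/ob-Veh, 16456 and 15146 CPM in WT-Veh, and 17214 and 16420 CPM in ob/ob-Rosi. The part of these differences in the target levels was not tested. At an unadjusted p under 0.05, 15 of 18 targets passed in eWAT and 15 of 21 in iWAT in the contrast of rosiglitazone with vehicle, where 14.3% and 23.4% of all genes of these classes did. The depots were not tested against each other on this list. Ptgs2 held 923 and 721 CPM in ob/ob-Veh, 99.3 and 89.6 CPM in WT-Veh, and 128 and 24.9 CPM in ob/ob-Rosi. Il6 held 385 and 327 CPM in ob/ob-Veh, 0 and 19.3 CPM in WT-Veh, and 30.4 and 7.10 CPM in ob/ob-Rosi. The ob/ob-Veh level of Il6 lay in the eWAT fibroblast cluster 8 (506 and 449 CPM in 1551 and 643 cells), whose leading genes include Ptgs2 and Il6 and whose Pi16 level was 573 and 493 CPM. The other ob/ob-Veh cluster of the class, 7, held 35.7 and 46.8 CPM of Il6 and 1554 and 1862 CPM of Pi16. Mmp3 did not follow them, with 3.67 and 3.79 CPM in ob/ob-Veh and 38.4 and 7.10 CPM in ob/ob-Rosi. Of the 10 digestion genes, 6 rose and 7 fell in these contrasts.

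In the eWAT preadipocytes 1 of 22 targets was called higher and 2 lower in ob/ob-Veh against WT-Veh, and 3 higher and 1 lower in the contrast of rosiglitazone with vehicle, where 7.68% and 7.81% of all genes of the class were called. Of the 10 digestion genes, Hspa1a and Hspa1b, which code for heat-shock proteins, were called higher (log2 1.42 and 2.15, edgeR adjusted p = 0.0191 and 0.000659) and then lower (log2 -1.38 and -1.83, edgeR adjusted p = 0.0215 and 0.00148). These preadipocytes had Mmp3 at 18.9 and 5.31 CPM in ob/ob-Veh, 179 and 140 CPM in WT-Veh, and 219 and 262 CPM in ob/ob-Rosi (log2 -3.81, edgeR adjusted p = 0.00190, and log2 4.4, edgeR adjusted p = 0.000883). Pycard, the inflammasome adaptor that serves the maturation of IL-1β, held 11.7 and 14.0 CPM in ob/ob-Veh, 63.7 and 56.2 CPM in WT-Veh, and 70.0 and 41.5 CPM in ob/ob-Rosi, and was called in both contrasts (edgeR adjusted p = 0.00130 and 0.00163). Prtn3, which codes for a serine protease of neutrophils, held 0.107 and 0.501 CPM in ob/ob-Veh, 7.2 and 8.4 CPM in WT-Veh, and 6.19 and 9.34 CPM in ob/ob-Rosi, and was called in both contrasts (log2 -4.72 and 4.73, edgeR adjusted p = 0.000783 and 0.000765). Lif went the other way, with 10.6 and 10.7 CPM in ob/ob-Veh, 0.900 and 0.551 CPM in WT-Veh, and 2.01 and 0.421 CPM in ob/ob-Rosi (log2 3.77 and -3.16, edgeR adjusted p = 0.00610 and 0.00906). Il1rl2 was higher in ob/ob-Veh than in WT-Veh, at 54.8 and 60.8 CPM against 28.1 and 28.2 CPM (log2 0.92, edgeR adjusted p = 0.0407). Pycard and Prtn3 are also myeloid genes, and they moved the same way as the macrophage list given above for these cells.

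The genes whose levels ran most like those of a member were found over the class sums, 98 in eWAT (22 classes) and 82 in iWAT (17 classes), which share libraries, so the correlations are descriptions. Il1r2 was most like AC163018.1 (Pearson r 0.63), Plbd1 (0.62) and Sept3 (0.59) in eWAT. Il33 was most like Efna5 (0.90), Prkg2 (0.89) and Pcdh20 (0.88) in iWAT and Aebp1 (0.84), Cachd1 (0.83) and Ptgis (0.82) in eWAT. Il1b was most like Gpr35 (0.85), Nlrp3 (0.82) and Mcemp1 (0.81) in iWAT, where Nlrp3 codes for the sensor of the inflammasome, and H2-Eb1 (0.87), H2-Ab1 (0.86) and H2-Aa (0.84), genes of class II antigen presentation, in eWAT. Il1rl1 was most like Nfkbia (0.69), Gadd45b (0.67) and Nfkbiz (0.65) in iWAT and Arih1 (0.76), Nfkb1 (0.76) and Nfkbiz (0.71) in eWAT, of which Nfkbia, Nfkb1 and Nfkbiz belong to the NF-κB pathway.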

How the data were processed

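The authors gavaged the mice, isolated the stromal vascular fraction and made 10x 3′ libraries, which they processed with Cell Ranger 3.0.2 on mm10. The deposited values are raw UMI counts per gene and cell. From these counts, cells with under 25% mitochondrial UMIs, 700 to 22000 UMIs and 200 to 6000 genes were kept, the limits of the authors' methods. Cells were clustered per depot (scanpy 1.11.5, 2000 variable genes without the 9 members and the pathway genes, 25 principal components, 20 neighbours, Leiden resolution 1) and named from markers. Depth per library was 20132553 to 92475986 UMIs, and shares of cells cover counting error only. Doublets were scored, and cells of high score were removed only as an alternative.

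Counts were summed per class and library and fitted with edgeR 4.0.16 (R 4.3.3, TMM, quasi-likelihood, all 3 groups) where each library compared had 20 cells, and DESeq2 1.42.0 was an alternative. The fit was first run on simulated data with known changes, where every gene had the same spread and only genes of higher counts were changed. That run does not bear on members with few UMIs or on groups that form separate clusters. The p-values rest on 1 spread per gene, estimated over the libraries of all groups in the fit (2 per group) and drawn towards that of other genes. Members and gene lists were chosen with earlier results of these data known, and the naming rules were adjusted after the clusters were seen and before groups were compared. Pathway genes were named from those called in progenitors or preadipocytes, at most the 5 largest changes in each direction of a contrast, and the text gives a part of these. Genes that ran like a member were ranked by Pearson's r of log2(CPM + 1). No sequence is printed. The genes most like Il1r2 in iWAT are not reported here.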

Additional observations from a re-analysis of the deposited data

Results flagged for a closer look

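Il1rl1 in PVM-like cells differed between depots for ob/ob-Veh against WT-Veh: the log2 fold change in iWAT minus that in eWAT was -3.42 (SE 0.55, edgeR adjusted p = 0.0173). The eWAT libraries labelled ob/ob-Veh held 44.6 and 42.7 CPM against 7.77 and 6.09 CPM in WT-Veh, and the iWAT libraries held 22.0 and 14.9 CPM against 40.7 and 19.9 CPM. Between 0 and 2 pairs of gene and class were called in this test when single libraries were left out.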

How the results depend on the processing

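Counts of called pairs of member and class are given here as the reported count and then the count under an alternative. For ob/ob-Veh against WT-Veh in eWAT (4 reported), 16 were called with no filter on low counts and 10 with a replicate block. In iWAT (8 reported) the counts were 4 with Il1r2 left out, 5 with Leiden resolution 2, 15 with no filter and 14 with the block. For ob/ob-Rosi against ob/ob-Veh in eWAT (6 reported) they were 2 in cells thinned to 700 UMIs, 11 with no filter and 12 with the block, and in iWAT (12 reported) 7 with Il1r2 left out, 7 with the macrophage classes pooled and 13 with the block. For ob/ob-Rosi against WT-Veh (0 reported in each depot) no filter gave 2 in eWAT and 1 in iWAT, and the block 2 and 0. The differences between depots (1 reported for ob/ob-Veh against WT-Veh and 0 for ob/ob-Rosi against ob/ob-Veh) became 2 and 4 with the block. The causes of these moves were not tested.

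Leaving out 1 library at a time gave 2 to 7 (eWAT) and 3 to 15 (iWAT) calls for ob/ob-Veh against WT-Veh, 1 to 12 and 3 to 16 for ob/ob-Rosi against ob/ob-Veh. For ob/ob-Rosi against WT-Veh it gave 0 to 2 and 0 to 3. The differences between depots ranged over 0 to 2 and 0 to 3. No direction of a called pair turned under any alternative tried.

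Replicate numbers in the labels give no shared animal, so same-numbered libraries were not taken as pairs in the reported fits. With 2 numbers per depot, their deviations correlated between 0.07 and 0.43 in eWAT and between 0.05 and 0.75 in iWAT within classes. In iWAT, WT-Veh and ob/ob-Rosi deviated together in progenitors (0.74), preadipocytes (0.66) and macrophages (0.75). Pairs with ob/ob-Veh in these classes were at 0.05 to 0.10, so ob/ob-Veh did not share in this likeness. Its source was not tested. Leaving out Il1r2, pooling the macrophage classes and leaving a myeloid-led cluster out of the eWAT T or NK class were chosen after seeing the data, and the last gave 5 calls for ob/ob-Rosi against ob/ob-Veh.

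With 2 libraries per group, a fit without 1 of them assumes that the lone library varies like the other groups. Fewer than 20 cells kept neutrophils, ILC2 and Treg of several groups out of the tests, and levels of a few CPM rest on a few UMIs.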
